A study of Mus musculus with 35 samples.

Results

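The cytosolic ribosome is built from ribosomal RNA and a set of proteins, and the genes of these proteins were examined here in microglia sorted from mouse spinal cord. Genes were taken by symbol: names made of Rpl or Rps and a number, with Rplp0, Rplp1, Rplp2 and Rpsa, leaving out named pseudogenes and the Rps6k kinases. A mean of at least 10 counts over the 35 libraries was required. This gave 85 genes of 45706 in the table, 49 of the large and 36 of the small subunit. The annotation types 4 of the 36 as processed pseudogenes although their symbols do not say so (Rps3a2, Rps3a3, Rps4l and Rps12l1), and none of these 4 passed the test of late disease or recovery against control. All 85 also passed the filter on low counts used for testing. Of 88 genes with such a symbol, Rpl10l, Rpl3l and Rpl6l were left out with mean counts of 0, 0.114 and far below 1, and the lowest genes kept were Rpl39l with 10.8 and Rps12l1 with 42.1.

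Mice were rNLS8 animals (genotype +/+, NEFH-tTa with tetO-hTDP43) or wild-type animals (-/-) of a mixed C57BL/6J X C3HeJ F1 strain, and all had eaten doxycycline until 8 to 12 weeks of age. In rNLS8 mice the NEFH promoter, which is active in neurons, drives the doxycycline-repressed activator, so that taking doxycycline away turns on human TDP-43. The early disease group held 7 rNLS8 mice taken 2 weeks off doxycycline. The late disease group held 7 rNLS8 mice taken 6 weeks off doxycycline. The recovery group held 7 rNLS8 mice that had been 6 weeks off doxycycline and then 1 week on it again. The control group held 14 mice: 6 rNLS8 mice never taken off doxycycline, and 8 wild-type mice. Of the wild-type mice 4 had been off doxycycline for 2 weeks, 1 for 6 weeks, and 3 for 6 weeks followed by 1 week back on it. By label, each group held males and females. Each library was counted as 1 mouse, following the labels. Where nothing more says that libraries were prepared apart, p-values measure only the spread between them.

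Each ribosomal protein is used once per ribosome, apart from the acidic stalk proteins, so that cells keep the levels of these proteins matched. Most of their mRNAs start with a run of pyrimidines (a 5′ terminal oligopyrimidine, or TOP, tract), through which growth signalling by mTOR controls their translation. In microglia, the resident macrophages of the spinal cord, ribosome content is one part of the growth that goes with activation. An mRNA level says nothing of ribosome number or of translation.

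Libraries held 13.9 M to 20.4 M estimated counts (M, 1e6 counts). The 11 microglial markers were present in every library, with summed CPM (counts scaled to 1e6 per library) of 60109 to 70741 in early disease, 46824 to 68798 in late disease, 61175 to 69853 in recovery and 62153 to 79309 in controls. Late disease library 6 stood apart: it held the lowest microglial sum and the highest oligodendrocyte and monocyte sums of its group. In that library 1 of the 7 oligodendrocyte and 3 of the 9 monocyte markers were at 0. A code in the library names also divides the samples. The authors' deposited sample table lists it under Date for all 35 libraries, without saying what was done on that date. All recovery libraries carry 0803 and no other group does, 9 controls carry 0810 and no diseased library does, and the codes 1019, 1102 and 1130 hold the early and late libraries and 5 controls. The authors' TPM values (transcripts scaled to 1e6) fell short of their full total, and the missing percent was 3.01 to 5.52 in early disease, 2.32 to 4.58 in late disease, 4.09 to 8.86 in recovery and 3.76 to 30.8 in controls.

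By TPM, a unit scaled for transcript length, the 85 genes made up a small share of the table. That share was 1.38% to 1.57% in early disease (median 1.45%), 1.60% to 3.25% in late disease (1.79%), 1.65% to 2.12% in recovery (1.85%) and 1.18% to 1.73% in controls (1.46%). Its mean was 1.47 ± 0.070% in early disease, 1.97 ± 0.58% in late disease and 1.86 ± 0.154% in recovery (SD, n = 7 each), against 1.46 ± 0.148% in controls (SD, n = 14). Without late disease library 6, which was the highest, the late libraries ranged from 1.60% to 2.01%. The large subunit took slightly more TPM than the small one in every library. The ratio of their sums was 1.05 to 1.17 in early disease, 1.05 to 1.20 in late disease, 1.06 to 1.16 in recovery and 1.04 to 1.29 in controls, so the groups overlapped in this balance.

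Levels of single genes differed widely. The highest median TPM over the libraries belonged to Rps29 with 680 and Rpl13 with 558. Rps9 had 444, and Rpl41, Rpl32, Rplp0, Rpl37a, Rps27 and Rps25 were also among the highest of their subunit. The lowest were Rpl39l with 1.51, Rpl12 with 6.61, Rps12l1 with 7.34 and Rpl5 with 8.21 TPM. Estimated counts share reads among near-identical copies, so values of genes with such copies, among them Rps12 and Rps3a1, are uncertain. Of the 85 genes' values 12.3% were whole numbers within 1e-06, against 84.67% of all values in the table. The table also holds genes of low or no count, where a 0 is whole, so these percents do not compare genes of like level.

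In late disease against control, ribosomal protein genes were mostly higher, in both subunits. Of the 85 genes, 47 rose and none fell (edgeR's quasi-likelihood test, Benjamini-Hochberg adjusted p under 0.05 over 13501 genes). Among all genes tested, 9.08% rose and 6.39% fell. In the large subunit 28 of 49 genes rose, with a median log2 fold change of 0.40 and a range of -0.26 to 1.00, and in the small subunit 19 of 36 rose, with a median of 0.45 and a range of -0.27 to 0.78. The fold change was above 0 for 78 of the 85 genes, and the median over all genes tested was 0.02. Of the 11 microglial markers 1 rose in the same comparison, Ptprc at a log2 fold change of 0.38 (edgeR adjusted p = 0.00543). Another 4 fell, Gpr34 at -0.86 (0.0256), Tmem119 at -0.72 (3.76e-06), P2ry12 at -0.62 (0.0049) and Cx3cr1 at -0.46 (0.0397). For P2ry12, late disease library 6 had 1710 CPM, the other late disease libraries 5409 to 6523 and controls 6188 to 10950. In the same order, Cx3cr1 had 1171, 5141 to 6857 and 5727 to 7929 CPM. Tmem119 had 3027, 4516 to 5906 and 6848 to 9629 CPM. Fold changes of these markers without library 6 are not given here. The part of the markers in the result was not tested. In bulk samples, a change in the make-up of the sorted cells and a change in RNA per cell cannot be told apart.

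**Figure D1:**
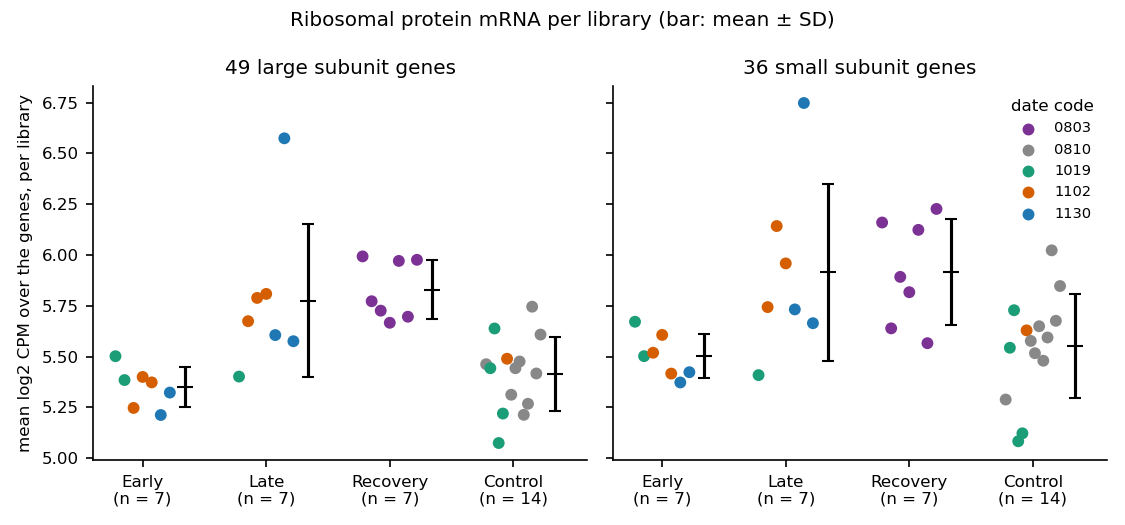
Mean log2 CPM over the 49 large subunit genes (left) and the 36 small subunit genes (right) in each of the 35 libraries, by group, with each point coloured by its date code and the black mark and bar giving the group mean and SD. Late disease library 6 is the highest point in both panels, at 6.57 for the large subunit, and the recovery libraries lie between 5.67 and 5.99 on the left.

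The mean log2 CPM over the large subunit genes was 5.40 to 6.57 in late disease (median 5.67), against 5.07 to 5.75 in controls (5.44). For the small subunit it was 5.41 to 6.75 in late disease (5.74), against 5.08 to 6.02 in controls (5.59). The groups overlapped in both. Late disease library 6 decided much of the count: without it 13 of the 85 genes rose, while 5.83% of all genes tested did, and the median fold change of the 85 genes was 0.24 on the log2 scale. All 13 were among the 47: Rpl10a, Rpl14, Rpl17, Rpl19, Rpl32, Rpl37, Rpl37a, Rpl41, Rps15a, Rps19, Rps24, Rps26 and Rpsa. Without late disease library 3, 30 of the 85 rose, while 5.96% of all genes did. The oligodendrocyte markers summed to 5270 CPM in library 6, 2120 to 5270 in late disease as a whole and 1181 to 3429 in controls. None of their 7 genes was at 0 throughout a group, but 1 was at 0 in library 6. Of the 6 tested in late disease against control, 2 had a log2 fold change above 0, and 1 rose. Their median was -0.07. The 9 monocyte markers summed to 158 CPM in library 6, with 3 of them at 0 there. Their sums were 32.0 to 158 in late disease and 6.46 to 26.3 in controls, and 2 of the 8 tested rose. Their part in the result was not tested.

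Date also bears on this comparison. With only the 5 controls of the dates shared with diseased mice, 4 of the 85 genes rose, Rpl10a, Rpl30, Rps21 and Rps28, and 0.834% of all genes did. The median log2 fold change of the 85 genes was 0.48 there. With date as a term in the edgeR model, 0 members passed, and 0.0303% of all genes tested rose. In that model 23 members had an unadjusted p under 0.05, 21 of them higher, against 8.92% of all genes in either direction, and the median log2 fold change of the 85 genes was 0.37. DESeq2 without the date term called 51 members, and 18.1% of all genes, in either direction. Within date 1019, the late disease library minus the mean of 4 controls was 0.06 for the large and 0.04 for the small subunit on the mean log2 CPM scale. Within date 1102, the mean of 3 late disease libraries minus the single control was 0.27 for the large and 0.32 for the small subunit. Date 1130 held no control. These within-date means were not adjusted for sex.

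Rpl10a gave the largest rise in late disease. It encodes uL1, the protein of the mobile stalk that guides spent tRNA out of the ribosome, and lies at chr17:28328471-28331033 (+ strand, mm10, GENCODE annotation). Its level was 57.6 to 137 CPM in late disease (median 73.4), against 27.0 to 56.6 CPM in controls (39.9). All 7 late disease libraries lay above the highest control, which held for no other member in this comparison and for 0.281% of all genes tested. The log2 fold change was 1.00 with an SE of 0.121 (edgeR adjusted p = 1.91e-06). It rose whichever single library was left out, with adjusted p between 1.18e-06 and 1.08e-05. It was not past the threshold with date as a term (adjusted p = 0.131).

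Other large rises came from both subunits and overlapped controls more. Rpl12, a protein at the base of the stalk that recruits elongation factors, had 3.48 to 10.5 CPM in late disease (median 5.98), against 1.23 to 7.40 in controls (3.84). Its log2 fold change was 0.90 with an SE of 0.265 (edgeR adjusted p = 0.018), and 3 of 7 late disease libraries lay above all controls. Without late disease library 6 it missed the threshold (adjusted p = 0.053). Rps18, a protein of the small subunit's head, had 56.8 to 282 CPM in late disease (median 88.3), against 27.3 to 102 in controls (64.3). Its log2 fold change was 0.78 with an SE of 0.206 (edgeR adjusted p = 0.00965, and 0.106 without library 6), and 2 of 7 late disease libraries lay above all controls.

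Rps15a, another small subunit protein, had 27.6 to 84.9 CPM in late disease (median 40.5), against 15.2 to 38.4 in controls (25.2). Its log2 fold change was 0.71 with an SE of 0.157 (edgeR adjusted p = 0.00235, and 0.0214 without library 6), and 4 of 7 late disease libraries lay above all controls. Rpl32 had 91.0 to 309 CPM in late disease (median 131), against 63.3 to 126 in controls (93.7), and a log2 fold change of 0.66 with an SE of 0.150. Rpl14 had 71.2 to 203 CPM in late disease (median 88.1), against 48.2 to 91.0 in controls (64.3), and a log2 fold change of 0.65 with an SE of 0.133. Both are large subunit proteins, and both rose with and without library 6 (edgeR adjusted p = 0.0269 and 0.00803 without it). The remaining genes of the 10 largest rises were Rps24 at 0.63, Rps19 at 0.63, Rpl36a at 0.60 and Rpl37a at 0.59 on the log2 scale. Rps24 and Rps19 encode small subunit proteins that human cells need for processing of the 18S ribosomal RNA precursor. Of these 4, Rpl36a missed the threshold without library 6 (edgeR adjusted p = 0.0562).

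**Figure D2:**
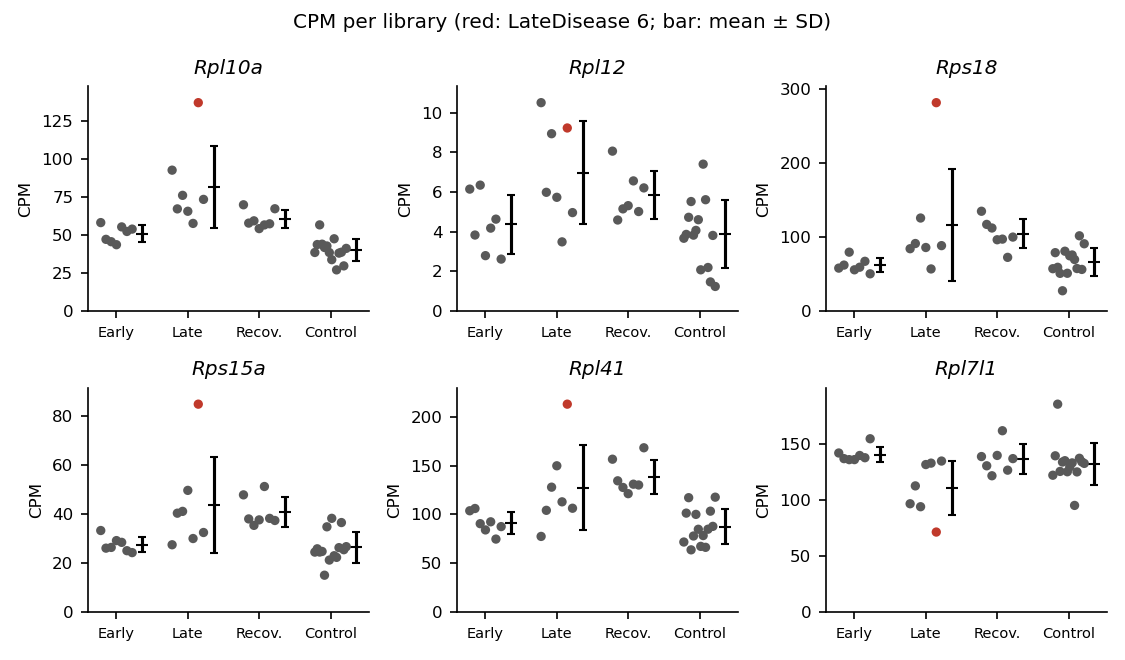
CPM in each library by group for Rpl10a, Rpl12, Rps18, Rps15a, Rpl41 and Rpl7l1, each panel with its own axis, with late disease library 6 drawn in red. The late disease libraries of Rpl10a and the recovery libraries of Rpl41 lie above all controls, and library 6 is the highest late disease library for 4 of the 6 genes, not for Rpl12, and the lowest for Rpl7l1.

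By role, the rises in late disease were spread over the ribosome. At the stalk that binds elongation factors, Rpl12 rose and the others did not pass the test: Rplp0 had a log2 fold change of 0.27 (edgeR adjusted p = 0.0725), Rplp1 0.43 (0.143) and Rplp2 0.37 (0.0633). In the particle formed with 5S ribosomal RNA, which also binds Mdm2 when ribosome assembly is disturbed, Rpl11 rose by 0.40 (0.0199) and Rpl5 had 0.70 (0.0926). Around the catalytic centre and the exit tunnel, 4 of 6 genes rose. These were Rpl17 with 0.56 (0.00374), Rpl39 with 0.52 (0.0226), Rpl4 with 0.41 (0.00996) and Rpl10 with 0.36 (0.0427). Rpl3 had 0.30 (0.346) and Rpl8 had 0.26 (0.108). None of the 3 genes at the mRNA entry passed, Rps2 with 0.36 (0.29), Rps3 with 0.36 (0.0596) and Rps9 with 0.29 (0.11). Rps27a, which is made as a fusion to ubiquitin, rose by 0.46 (0.0129). Of 11 genes whose loss of 1 copy causes Diamond-Blackfan anaemia in humans, 5 rose: Rpl11, Rps10, Rps19, Rps24 and Rps26. Library 6 decided many of these calls too. Without it Rpl17 kept its call (edgeR adjusted p = 0.0297). The threshold was missed by Rpl12 (0.053), Rpl39 (0.192), Rpl4 (0.0773), Rpl10 (0.192), Rpl11 (0.112) and Rps27a (0.108), and also by Rps10.

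The paralogs differed among themselves. Rpl22l1, a paralog of Rpl22, rose by 0.49 (edgeR adjusted p = 0.0404, and 0.301 without late disease library 6). Rps27l, a p53-induced paralog of Rps27, had a log2 fold change of -0.07 (0.767), and its sign turned under several alternatives. Rpl39l, a paralog used in the testis, had 0 to 1.84 CPM in late disease and 0 to 2.13 CPM in controls. Rpl7l1, whose yeast relative acts in assembling the large subunit, had 71.4 to 134 CPM in late disease (median 112), against 95.0 to 185 in controls (133). Its log2 fold change was -0.26 with an SE of 0.0981 (edgeR adjusted p = 0.0643), and DESeq2 called it lower (adjusted p = 0.0479). Every late disease library lay below the lowest early disease library of 136 CPM, at a log2 fold change of -0.35 (edgeR adjusted p = 0.123). That separation was picked out after the values were seen, and 0.356% of all genes tested showed the same one.

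Sequence around the transcription start was read from RefSeq promoters on GRCm38.p6, since the start is where a TOP tract lies. Of the 85 genes 61 had an entry. In the window from 40 bases before to 20 after the start, an unbroken run of 8 or more C or T was present in 36 of them (59.0%), against 26.9% of the tested genes with an entry and 27.2% of all entries. The letters CGGAAG, the core bound by ETS family factors, were found on either strand of the 300-base promoter in 42 of the 61 (68.85%), against 36.3% of the tested genes and 18.8% of all entries. The sequences shown are called genes with long runs near the start (Rps18, Rps15a, Rpl14 and Rps10), Rpl12 and Rpl7l1. Rpl12 was called but had no run of 8 or more there, and Rpl7l1 was not higher. Rps15a, Rpl14 and Rps10 were called in recovery too. Capitals mark the longest run of C and T in each 60-base window, and both runs in Rpl12, where 2 of 7 bases tie. In Rps15a the marked run ends before the start, and a shorter run of 9 bases over the start is left in lower case. A match is a description of letters, not a mapped start or a bound site, and Rpl10a, with 2 listed starts, had no run longer than 7 and no CGGAAG.
Rps18, chr17:33955646-33955705, minus strand: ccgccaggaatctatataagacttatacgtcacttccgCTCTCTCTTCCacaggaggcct
Rps15a, chr7:118116128-118116187, minus strand: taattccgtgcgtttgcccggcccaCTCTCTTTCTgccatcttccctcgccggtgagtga
Rpl14, chr9:120571477-120571536, plus strand: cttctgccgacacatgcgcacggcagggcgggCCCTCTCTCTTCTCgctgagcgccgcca
Rps10, chr17:27635225-27635284, minus strand: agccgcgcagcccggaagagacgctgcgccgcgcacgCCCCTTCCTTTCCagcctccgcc
Rpl12, chr2:32961672-32961731, plus strand: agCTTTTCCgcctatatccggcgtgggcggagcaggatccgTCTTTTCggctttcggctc
Rpl7l1, chr17:46782637-46782696, minus strand: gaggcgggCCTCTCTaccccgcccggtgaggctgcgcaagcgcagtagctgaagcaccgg

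In recovery against control, 23 of the 85 genes rose and none fell, while 2.78% of all genes tested rose and 1.1% fell. The large subunit gave 12 and the small subunit 11 of these. The median log2 fold change was 0.38 in the large and 0.41 in the small subunit, against -0.01 over all genes, and 82 of 85 genes were above 0. Both this comparison and the one of late disease use the same 14 controls. The mean log2 CPM over the large subunit was 5.67 to 5.99 in recovery (median 5.77), against 5.07 to 5.75 in controls (5.44). For the small subunit it was 5.57 to 6.23 in recovery (5.89), against 5.08 to 6.02 in controls (5.59).

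Rpl41, which encodes the smallest ribosomal protein, had the largest rise among the genes called in recovery. It had 121 to 168 CPM in recovery (median 131), against 63.9 to 118 in controls (84.9). All 7 recovery libraries lay above the highest control. The log2 fold change was 0.67 with an SE of 0.130 (edgeR adjusted p = 0.00153). Rps15a had 35.5 to 51.3 CPM in recovery (median 38.1), against 15.2 to 38.4 in controls (25.2), and a log2 fold change of 0.63 with an SE of 0.156. Rpl32 had 109 to 171 CPM in recovery (median 130), against 63.3 to 126 in controls (93.7), and a log2 fold change of 0.59 with an SE of 0.149. For Rpl32, 5 of 7 recovery libraries lay above all controls. Rpl10a had 54.2 to 69.8 CPM in recovery (median 57.8), against 27.0 to 56.6 in controls (39.9), at 0.59 with an SE of 0.121. Rps16, whose protein contacts the tRNA in the P site, had 55.2 to 93.8 CPM in recovery (median 72.7), against 32.0 to 56.1 in controls (49.8), at 0.59 with an SE of 0.140 (edgeR adjusted p = 0.01). Rpl36, noticed after the values were seen, was the other gene without overlap, at 43.5 to 56.8 CPM in recovery against 22.8 to 43.2 CPM in controls. Of all genes tested, 0.43% had every recovery library above every control.

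By role, Rpl17 rose among the 6 genes of the exit tunnel and catalytic centre, with a log2 fold change of 0.52 (edgeR adjusted p = 0.014), and Rps27a rose by 0.44 (0.0387). None of the 4 stalk genes and neither 5S particle gene passed: Rpl5 had -0.04 in recovery against control, where it had 0.70 in late disease against control. Of the 11 Diamond-Blackfan genes 3 rose, Rps10, Rps19 and Rps26.

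Recovery libraries share no date with any other group, so this date code and recovery cannot be told apart. With only the 5 controls of the dates 1019 and 1102, 6 genes rose (Rpl22, Rpl38, Rps14, Rps21, Rps28 and Rps29), while 0.783% of all genes did. The call also leaned on single libraries: 6 genes rose without recovery library 9, 12 without library 7, 15 without library 2, and 38 without control 7. Of all genes tested, 1.92%, 2.22%, 2.01% and 3.29% rose in these 4 fits, in that order. With late disease library 6 out of the fit, though it belongs to neither group, 48 rose, all 23 among them, while 3.77% of all genes did. Neutrophil markers moved with this group. The 12 genes summed to 775 to 7652 CPM in recovery (median 2488), against 455 to 853 in controls (579), and 8 of the 10 tested rose, with no marker at 0 in all recovery libraries. Monocyte markers summed to 71.2 to 608 CPM in recovery, against 6.46 to 26.3 in controls, with 6 of 8 tested higher. Proliferation markers rose in 7 of 12, with sums of 179 to 412 CPM in recovery, against 132 to 205 in controls. The part of these cells in the result was not tested.

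**Figure D3:**
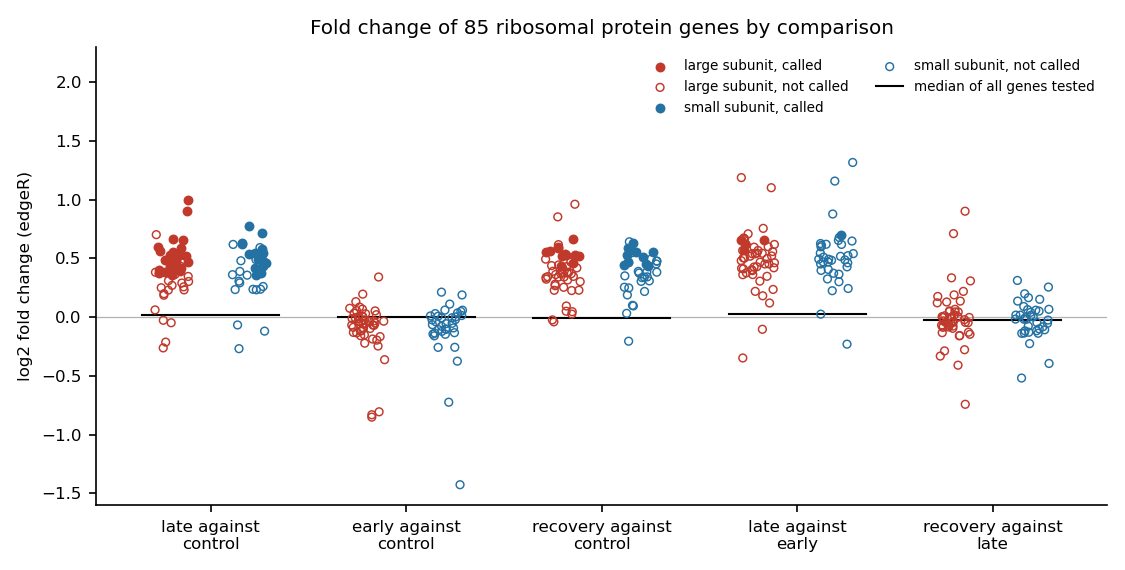
Log2 fold change of each of the 85 genes in 5 comparisons, large and small subunit apart, with filled points past the edgeR threshold and a line at the median of all genes tested. Most points of late disease and recovery against control lie above 0, with medians of 0.42 and 0.38, and early disease against control is centred at -0.05.

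In early disease against control no member passed the threshold, and 0.00741% of all genes tested did in either direction. At an unadjusted p under 0.05 edgeR gave 3 members, 1 of them higher, against 12.6% of all genes. DESeq2 called 1 member, Rpl21, as lower, and 1.09% of all genes. The median log2 fold change over the 85 genes was -0.05 and 59 were below 0. The genes of lowest p were Rpl21, Rpl10a and Rpl26. Rpl21 had 16.5 to 33.1 CPM in early disease (median 20.1), against 21.5 to 75.0 in controls (34.9), at a log2 fold change of -0.83 with an SE of 0.229 (edgeR adjusted p = 0.135). Rpl10a had 43.6 to 58.1 CPM in early disease (median 52.3), against 27.0 to 56.6 in controls (39.9), at 0.34 with an SE of 0.122 (edgeR adjusted p = 0.232). Every early disease library lay above the control median for Rpl10a, and 1 of 7 lay above all controls. Rpl26 had a log2 fold change of -0.85 (edgeR adjusted p = 0.351). Within dates and not adjusted for sex, early disease minus control was taken on the mean log2 CPM scale. It was 0.10 for the large and 0.22 for the small subunit on 1019 (2 and 4 libraries), and -0.15 and -0.12 on 1102 (3 and 1).

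Late and early disease were compared directly. Of the 85 genes 5 rose and none fell, while 0.57% of all genes tested rose and 0.133% fell. The median log2 fold change was 0.50 in the large and 0.49 in the small subunit, against 0.03 over all genes, and 82 of 85 genes were above 0. Rps28, a small protein of the subunit's head, had 37.3 to 110 CPM in late disease (median 56.4), against 31.9 to 41.6 in early disease (37.9), at 0.70 with an SE of 0.172 (edgeR adjusted p = 0.0448). Rpl10a had 57.6 to 137 CPM in late disease, against 43.6 to 58.1 in early disease, at 0.66 with an SE of 0.143 (0.0239). Rpl37a was at 0.66 (0.0438), Rpl23, which faces the small subunit in the joined ribosome, at 0.63 (0.0388) and Rpl19 at 0.57 (0.0388). For each of these 5 genes, 6 of 7 late disease libraries lay above the highest early disease library.

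These calls changed with single libraries and with date. With date as a term in edgeR 0 of 85 passed, while 0.212% of all genes rose. There 62 members had an unadjusted p under 0.05, 61 of them higher, against 13.2% of all genes in either direction, and the median log2 fold change was 0.43. Without late disease library 6 again 0 passed, while 0.205% of all genes rose, 49 had an unadjusted p under 0.05 (10.4% of all genes) and the median was 0.30. DESeq2 on all libraries called 28 members, and 2.97% of all genes. With other libraries left out, the share of all genes that rose is given in parentheses. No member passed without late disease library 3 (0.088%) or early disease libraries 5 or 6 (0.00733% and 0.00732%). A single member passed without early disease library 1, 3, 4, 7 or 8 (0.308%, 0.388%, 0.418%, 0.242% and 0.3%), and 3 passed without late disease library 2 (0.499%) or 4 (0.586%). By contrast 14 passed without late disease library 5 (0.96%), 25 without library 7 (1.28%) and 36 without library 1 (1.38%). Within date 1019, the late disease library minus the mean of 2 early ones was -0.04 for the large and -0.18 for the small subunit on the mean log2 CPM scale. Within date 1102 (3 late and 3 early libraries) the difference was 0.42 and 0.43. Within date 1130 (3 late and 2 early libraries) it was 0.65 for both subunits, and 0.32 and 0.30 without library 6. These means were not adjusted for sex. By label, the late libraries of 1130 were all male and the early ones all female, so sex and stage cannot be told apart there. On 1102 the late libraries were all female and the early ones of both sexes.

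**Figure D4:**
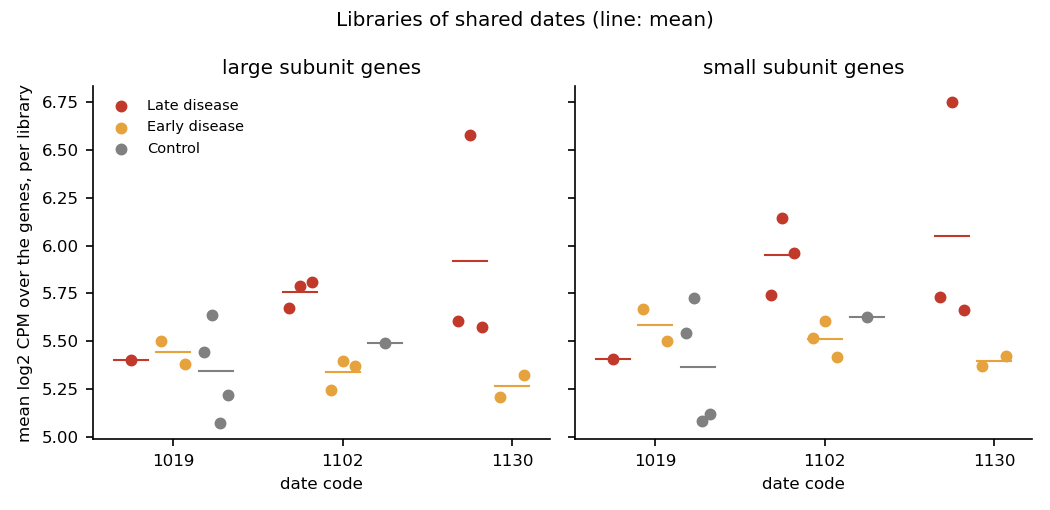
Mean log2 CPM of the large and small subunit genes in late disease, early disease and control libraries, split by the date codes 1019, 1102 and 1130, with 1 point per library. Late disease exceeds early disease on 1102 and 1130, and on 1019 the single late disease library is not above the mean of the 2 early ones. Values are not adjusted for sex, and on 1130 the late disease libraries are all male and the early ones all female.

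Recovery against late disease gave no member past the threshold, while 0.563% of all genes tested were called in either direction. At an unadjusted p under 0.05 there were 5 members by edgeR, against 16.5% of all genes, and DESeq2 called 0 members and 2.83% of all genes. The median log2 fold change of the 85 genes was -0.02. Without late disease library 6 it was 0.18, with 0 members past the threshold and 15 at an unadjusted p under 0.05, against 14.4% of all genes. The genes of lowest p were Rpl10a at -0.41 with an SE of 0.143 (edgeR adjusted p = 0.133), Rpl7l1 at 0.31 (0.15) and Rpl5 at -0.74 (0.258). A p that misses the threshold does not show equal levels.

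Within the controls no member passed in either comparison, and neither did any of the 13470 genes tested (0%). Between rNLS8 mice on doxycycline and wild-type mice of the same date, 2 members had an unadjusted p under 0.05, against 4.4% of all genes, and DESeq2 called 0 members and 0.269% of all genes. The genes of lowest p were Rps3a1, Rps3a2 and Rps3a3, which are copies of each other. Between wild-type mice of date 0810 and those of other dates, 5 members had an unadjusted p under 0.05, all higher, against 7.77% of all genes in either direction, and DESeq2 called 0 members and 0.889% of all genes. These were led by Rps28 at 0.45, Rplp2 at 0.42 and Rps14 at 0.44 on the log2 scale. The median over the 85 genes was 0.07 in the first and 0.08 in the second comparison.

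**Figure D5:**
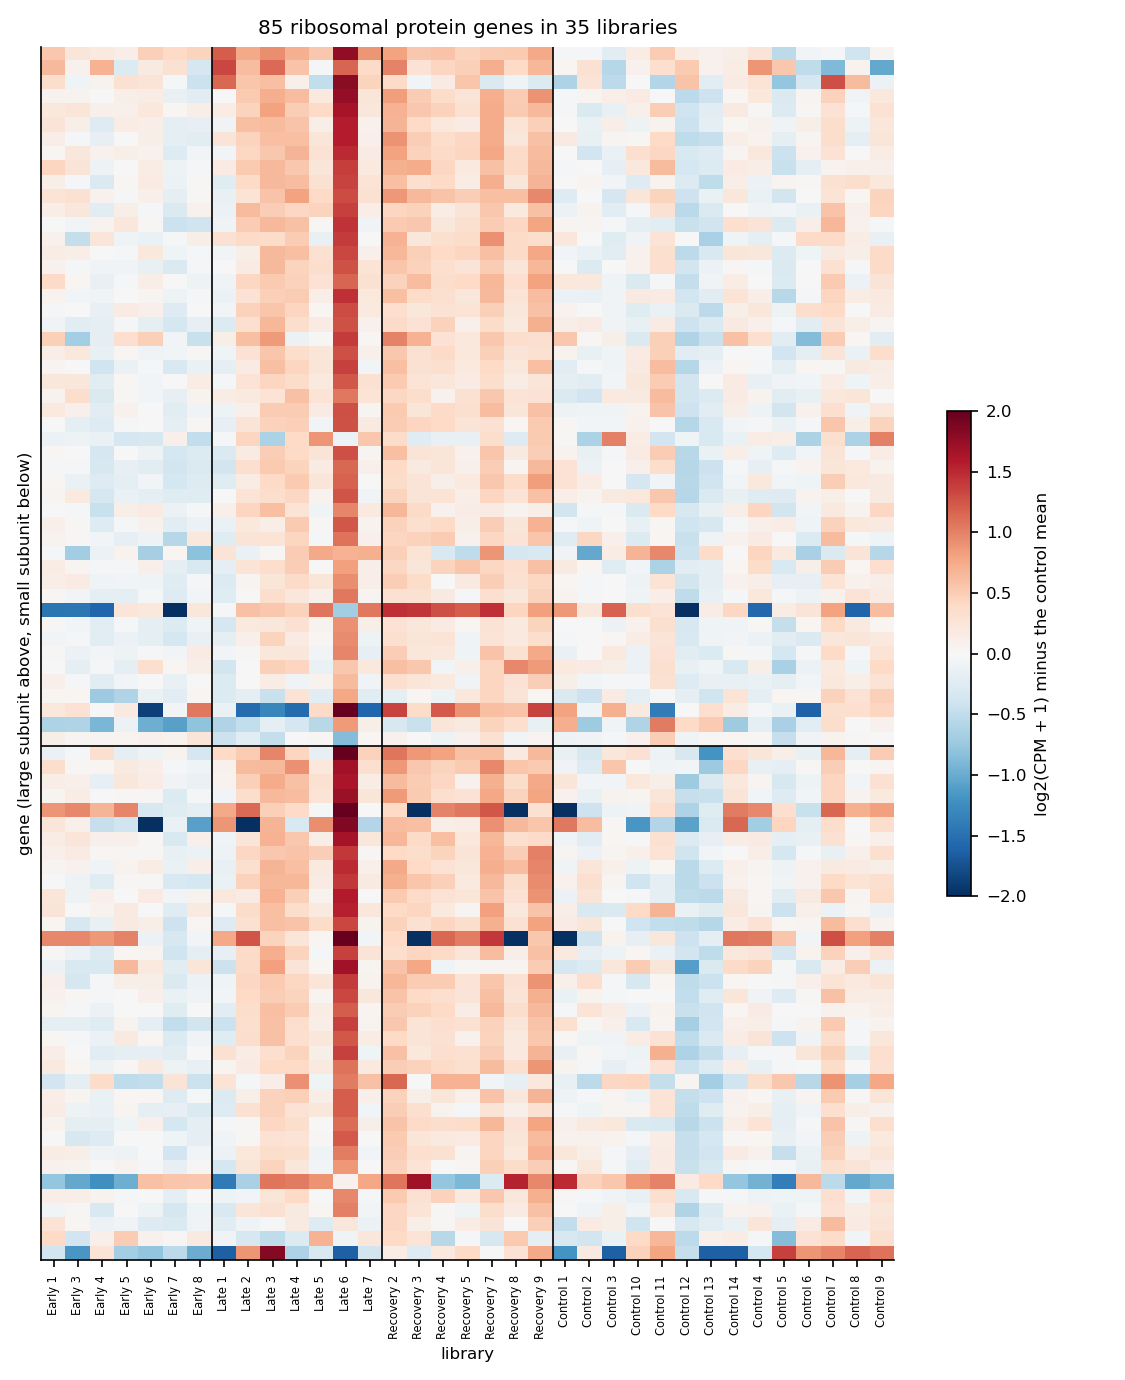
Log2(CPM + 1) of the 85 genes in the 35 libraries, each gene given as its difference from the control mean, with libraries ordered by group and genes ordered within each subunit by their fold change in late disease against control. Late disease library 6 is a column of high values through most rows, and the recovery libraries are raised in most rows as well.

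The genes varied together from library to library. After the group means were taken away, the median pairwise correlation between members was 0.641 over 35 libraries, and 0.517 over 34 libraries without late disease library 6. Members share libraries, depth and scaling, so this is a description. With library 6 left out, 65 of the 85 genes had a correlation of at least 0.5 with the mean of the other members. The loosest were Rpl12 at -0.24, Rps3a1 at -0.09, Rpl29 at -0.03, Rps12 at 0.06, Rpl5 at 0.10 and Rpl3 at 0.12. Rpl10a had 0.16, so the gene with the largest rise in late disease moved little with the rest inside groups.

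Several of the loose genes have copies that could divide their reads. Rps3a1 alone varied by 57.7% in early disease, 50.9% in late disease, 64.7% in recovery and 60.6% in controls (coefficient of variation), and its sum with Rps3a2 and Rps3a3 varied by 6.67% in early disease, 34.95% in late disease, 10.4% in recovery and 17.3% in controls. Summing Rps12 with Rps12l1 left 49.7% in early disease, 63.0% in late disease, 15.7% in recovery and 46.8% in controls. The Rps3a sum was 127 to 339 CPM in late disease (median 181), 160 to 207 in recovery (183) and 106 to 188 in controls (147). Named pseudogenes held 84.2% of the joint count for Rps12, 82.7% for Rpl27 and 72.4% for Rpl10, and over 10% for 11 members in all. At least 1 named pseudogene exists for 59 of the 85, and the median percent over all 85 was 0.0832. For Rpl10a the percent was 8.52. Only 10 members had a whole count in at least 50% of libraries. Of these, 2 rose in late disease against control, with a median log2 fold change of 0.29. Of the other 75 members 45 rose, with a median of 0.43, while 9.08% of all genes tested rose. The part of read sharing in the result was not tested. With each member summed with its named pseudogenes, 48 passed in late disease against control. The share of all genes that passed in that fit is not given here. Calls were gained by Rpl3, at a log2 fold change of 0.49 (edgeR adjusted p = 0.00249), Rps2, at 0.51 (0.00948), and Rps12, and lost by Rpl10, at 0.27 (0.0875), and Rpl23a.

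Genes of translation outside the 85 were counted from lists made for this purpose. Among all genes tested, 9.08% rose and 6.39% fell in late disease against control, and 2.78% rose in recovery against control. With date as a term, 0.0303% of all genes rose in late disease. Results of the listed genes in that fit, or without late disease library 6, are not given here. In late disease against control, 8 of 20 genes for elongation factors and other TOP mRNAs rose and none fell, with a median log2 fold change of 0.23. Examples were Eif4a1, the RNA helicase of initiation, at 0.53 (edgeR adjusted p = 9.38e-05), and Pabpc1, the poly(A)-binding protein, at 0.77 (0.000377). In recovery 3 of these 20 rose. Of 68 ribosome biogenesis genes, 15 rose and 1 fell in late disease, with a median of 0.09. Ncl, which encodes nucleolin, was at 0.45 (0.00201) and Mybbp1a at 0.63 (0.00251), and Sbds, needed for releasing Eif6 from the large subunit, was the gene that fell. Regulators of TOP mRNA translation went both ways: Larp1, which binds the tract, rose by 0.45 (0.00505), Eif4g1 rose by 0.55 (0.00288), and Eif4e, the cap-binding protein, fell by 0.41 (0.00316).

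The mitochondrial ribosome is a separate particle. Of its 78 protein genes 2 rose and 10 fell in late disease, with a median log2 fold change of -0.08, and in recovery 2 rose with a median of 0.07. Among all genes tested, 9.08% rose and 6.39% fell in late disease. None of 78 nuclear genes of oxidative phosphorylation passed in late disease, with a median of 0.04. In recovery 2 of them rose, while 2.78% of all genes tested did. There 72 of the 78 were above 0, with a median of 0.18 against -0.01 over all genes. Short transcripts as a class gave another yardstick. Among 860 other genes whose longest transcript is under 1000 bases, 47 rose and 29 fell in late disease with a median of -0.0032, while 46 rose and 2 fell in recovery with a median of 0.12. Members under 1000 bases had a median of 0.43 in late disease, with 21 of 39 higher, and longer members had 0.41, with 26 of 46 higher. In recovery the shorter members had a median of 0.44, with 14 of 39 higher, and the longer ones 0.38, with 9 of 46 higher. The part of transcript length in the result was not tested.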

How the data were processed

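Bulk RNA-seq of microglia sorted on CD11b and CD45 was analysed, and the libraries were made with kits that do not mark the strand, per the labels' protocols, so antisense reads cannot be told apart. The authors deposited expected counts per gene and TPM values for the same genes. RSEM, DESeq2 and mm10 are named in the submitters' processing notes, without versions or settings. The date code was read from the library names and equals the Date column of a sample table the authors deposited, which also gives each library's effective alignment count and sex. Symbols matched 45143 of 45706 identifiers.

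Expected counts were rounded and tested with edgeR 4.0.16 in R 4.3.3: TMM scaling, the package's low-count filter by group, group and labelled sex as terms, quasi-likelihood F tests, and Benjamini-Hochberg adjustment over 13501 genes (13470 for controls alone) at 0.05. CPM values use TMM library sizes, and mean log2 CPM a prior count of 2. DESeq2 1.42.0 and limma 3.58.1 on log2 TPM served as alternatives. The fit was also run on simulated counts, drawn independently for each gene and library. These held no date effect, no outlying library and no genes varying together. The simulation therefore cannot show how such features affect the calls. PCR reads without molecular identifiers are not independent molecules, and depths of 13.9 M to 20.4 M limit counting error only. In 2 libraries the labelled sex differed from that table's, which was tried in its place.

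The members and the lists were chosen with earlier results of these data known. The genes named were the 10 largest rises in late disease against control, the 5 largest changes called in each other comparison or the 3 of lowest p, the 5 of each subunit with the highest median TPM, the genes of the role lists, and up to 4 genes of lowest p per other list. Some items that this rule names are not reported here. Alternatives covered scaling, tool, filter, unit and pseudocount, date, control choice, sex, TPM outside the table, pseudogenes, the replicate block and each library left out.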

Additional observations from a re-analysis of the deposited data

Results flagged for a closer look

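In groups of 7, the gap between the highest or lowest library and its nearest neighbour was divided by the range, and ratios above Dixon's critical value are listed here. Of 144 groups examined (48 measures in 3 groups) 15 passed. Chance gives about 1 in 20 where groups are independent. These measures share libraries and vary together, and many of the genes were named for their rise in late disease. That rate is therefore no reference for the 15. In 13 of the 15, late disease library 6 was the highest of its group. Its mean log2 CPM of the large subunit genes was 6.57, against 5.40 to 5.81 in the other late disease libraries (ratio 0.653). Its share of TPM in the 85 genes was 3.25%, against 1.60% to 2.01% (ratio 0.752). For single genes on the log2 CPM scale the ratio was 0.719 for Rps9, 0.655 for Rpl37a, 0.636 for Rps25, 0.634 for Rpl4, 0.622 for Rps14, 0.606 for Rps19, 0.604 for Rpl17, 0.599 for Rps27a, 0.586 for Rpl32, 0.585 for Rps29 and 0.57 for Rpl22l1. In early disease, library 7 was lowest for Rps19 (ratio 0.576) and library 8 was highest for Rpl7l1 (ratio 0.6675). No recovery group passed.

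The effects of late and early disease against control differed for 5 genes by the direct test of late against early disease (edgeR adjusted p under 0.05). The differences in log2 fold change were 0.70 for Rps28, 0.66 for Rpl10a, 0.66 for Rpl37a, 0.63 for Rpl23 and 0.57 for Rpl19. With date as a term none of them passed.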

How the results depend on the processing

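Up to 12 alternatives, 5 more chosen after seeing the data and 35 libraries left out in turn were run, as far as each bears on a comparison. In all those run for it, 0 members passed in recovery against late disease (14 libraries left out) and in both comparisons of controls (9 and 8). In late disease against control (47 called), limma on log2(TPM + 1) and on log2(TPM + 0.1) gave 71 each, with the all-gene median at 0.18 and 0.23, date as a term gave 0, shared-date controls 4, and leaving out 1 library 13 to 54. Of the alternatives chosen after seeing the data, library 6 out with the date term gave 0, library 6 out with shared-date controls 4, and early and late libraries with 5 controls and the date term 0. In early disease (0 called), DESeq2 gave 1, limma 4 and 5, and leaving out 1 library 0 throughout. In recovery (23 called), limma gave 64 and 64, shared-date controls 6, leaving out 1 library 6 to 38, and, chosen after seeing the data, late disease library 6 out of the fit 48, and with shared-date controls too 40. The limma fits used TPM without rescaling. The missing percent of TPM had a median of 14.6 in controls, 3.56 in late disease and 5.52 in recovery. In late against early disease (5 called), DESeq2 gave 28, no filter 1, date as a term 0, early and late libraries alone with date 0, 11 with the missing TPM share as a covariate, and leaving out 1 library 0 to 36. Those chosen after seeing the data gave 0 (library 6 out with date), 2 (the same in early and late libraries alone) and 0 (with 5 controls and date). Where no share of all genes is given for a fit, its count does not set the members apart from other genes.

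With the replicate block, 28 genes passed in late disease, 1 in early disease (Rpl10a), 19 in recovery and 1 in late against early disease. The numbers do not pair the samples: of 37 same-numbered pairs, 7 had deviations correlated above 0.1 (range -0.323 to 0.259 over 5000 genes), so this block has no basis in the design. The share of all genes called with the block is not given here, so its counts do not set the members apart from other genes.

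Fold changes of 2 uncalled genes turned sign in late disease against control. Rpl3 (0.30) was at -0.083 with date as a term, -0.086 and -0.015 with library 6 out and date or shared-date controls, and -0.14 with early and late libraries, 5 controls and date. Rps27l (-0.07) was at 0.15 and 0.15 with limma, 0.23 with date, 0.18 with shared-date controls, 0.24 with the TPM covariate, 0.20 and 0.13 with library 6 out and date or shared-date controls, and 0.23 with early and late libraries, 5 controls and date. The cause of these sign changes was not tested. The median over the 85 genes ranged from 0.24 to 0.59 in late disease, 0.35 to 0.53 in recovery and 0.27 to 0.56 in late against early disease. The 0.59 came from limma on log2(TPM + 0.1), where the all-gene median was also above 0, and the 0.24 from leaving out library 6. The 0.53 came from the fit with the TPM covariate.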
